A study of Mus musculus with 48 samples.

Results

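Messenger RNA of cells sorted as subcapsular sinus macrophages (SSM) was compared between lymph nodes of mice given cisplatin and of mice given PBS. The comparison took the 6 libraries whose labels name SSM, the node LN and either treatment, of 48 libraries in the series. The cisplatin group and the PBS group held 3 libraries each, called CIS 1 to CIS 3 and PBS 1 to PBS 3 here. All were labelled wild type, and per the study's design text the mice bore tumors. Age, sex, strain, the tumor and the tissue the LN nodes drained were not given in the sources used here. Nodes were digested, and the myeloid cells were sorted from them. The other 42 libraries hold medullary sinus macrophages (MSM), dendritic cells and cells of tumor-draining nodes (TDLN). Since nothing in the labels ties each library to an animal of its own, p-values here cover the spread among these libraries, part or all of which may be technical.

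Subcapsular sinus macrophages sit under the capsule of the node, where they catch particles, immune complexes and pathogens from the incoming lymph and hand antigen to B cells below. In mice they carry CD169, the product of Siglec1, with little F4/80 (Adgre1), while medullary sinus macrophages carry CD169, F4/80 and the scavenger receptor MARCO. Cisplatin is a platinum compound that enters cells in part through copper transporters and crosslinks DNA, which in dividing cells engages p53 and crosslink repair.

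Levels are in CPM, counts set against library size and scaled within the 12 libraries labelled SSM, and depth was 9.61 to 10.33 M counts in cisplatin libraries and 7.34 to 10.43 M counts in PBS libraries. A gene passed the test where its adjusted p was below 0.05 in the quasi-likelihood test of edgeR, with p adjusted by the Benjamini-Hochberg method over all genes tested. Values after ± are standard errors for log2 fold changes, which are cisplatin over PBS, and SD for CPM. Detected genes numbered 21501 to 21695 with cisplatin and 23293 to 25022 with PBS, and mitochondrial genes held 0.284 to 0.391% and 0.443 to 0.695% of counts. Library PBS 2 stood apart from its group. Its correlation of log2 CPM across 7856 genes was 0.757 to 0.758 with PBS 1 and PBS 3, but 0.989 to 0.991 with the libraries MSM 1 and MSM 3 of the same node and treatment. PBS 1 and PBS 3 correlated at 0.994 with each other and at 0.990 to 0.992 with the library labelled MSM 2 of that condition. The 3 cisplatin libraries correlated at 0.994 to 0.996 among themselves. They correlated at 0.865 to 0.866 with PBS 2 and at 0.849 to 0.855 with PBS 1 and PBS 3. By this measure PBS 2 was, by a small margin, the PBS library closest to the cisplatin libraries. Chi-square statistics per degree of freedom were 2.13 to 2.93 between cisplatin libraries and 3.10 between PBS 1 and PBS 3, against 122 to 126 between PBS 2 and either. PBS 2 and the library labelled MSM 2 thus each resembled the other label's libraries. In the TDLN, SSM CIS 3 likewise correlated at 0.990 to 0.994 with MSM CIS 2 and MSM CIS 3 and at 0.688 to 0.691 with SSM CIS 1 and SSM CIS 2, which correlated at 0.992 to 0.993 with MSM CIS 1. Whether the labels of either pair were exchanged was not tested, and all group means follow the labels. Results are therefore given with all 3 PBS libraries and without PBS 2.

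The defining markers of sinus macrophages did not follow the SSM label in a simple way. Siglec1, which encodes the CD169 receptor for sialylated particles, stood at 183, 180.4 and 169 CPM with cisplatin and at 349.6, 19.4 and 355 CPM in PBS 1 to 3. Marco, a scavenger receptor of medullary macrophages, was at 588, 601 and 602 CPM with cisplatin and at 1341, 4.60 and 1288 CPM with PBS. PBS 1 and PBS 3 thus held both genes at the highest levels, the cisplatin libraries lay between, and PBS 2 was nearly without them. The lectin gene Cd209b showed the same order, with 2187, 2143 and 2197 CPM against 7460.2, 36.4 and 7418 CPM. Timd4, a receptor for dying cells, stood at 442, 428 and 445 CPM with cisplatin and at 1393, 55.8 and 1417 CPM with PBS. Adgre1 ran the other way among the PBS libraries, with 393, 365 and 380.0 CPM against 189.7, 524 and 203 CPM, and so did the integrin gene Itgam, with 541, 533 and 529.9 CPM against 283, 654 and 289.6 CPM. None of these 6 genes passed the test with all libraries (adjusted p = 0.547 to 0.857) or without PBS 2 (adjusted p = 0.123 to 0.531). All 6 passed once a TDLN library that also resembles MSM was left out of the shared fit too (adjusted p = 4.95e-15 to 8.4e-08), with log2 fold changes of -0.96 for Siglec1, -1.11 for Marco and 0.98 for Adgre1. The high Marco and Cd209b of PBS 1, PBS 3 and the cisplatin libraries go against SSM as they are usually defined, so the libraries are named here by their label only.

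**Figure D1:**
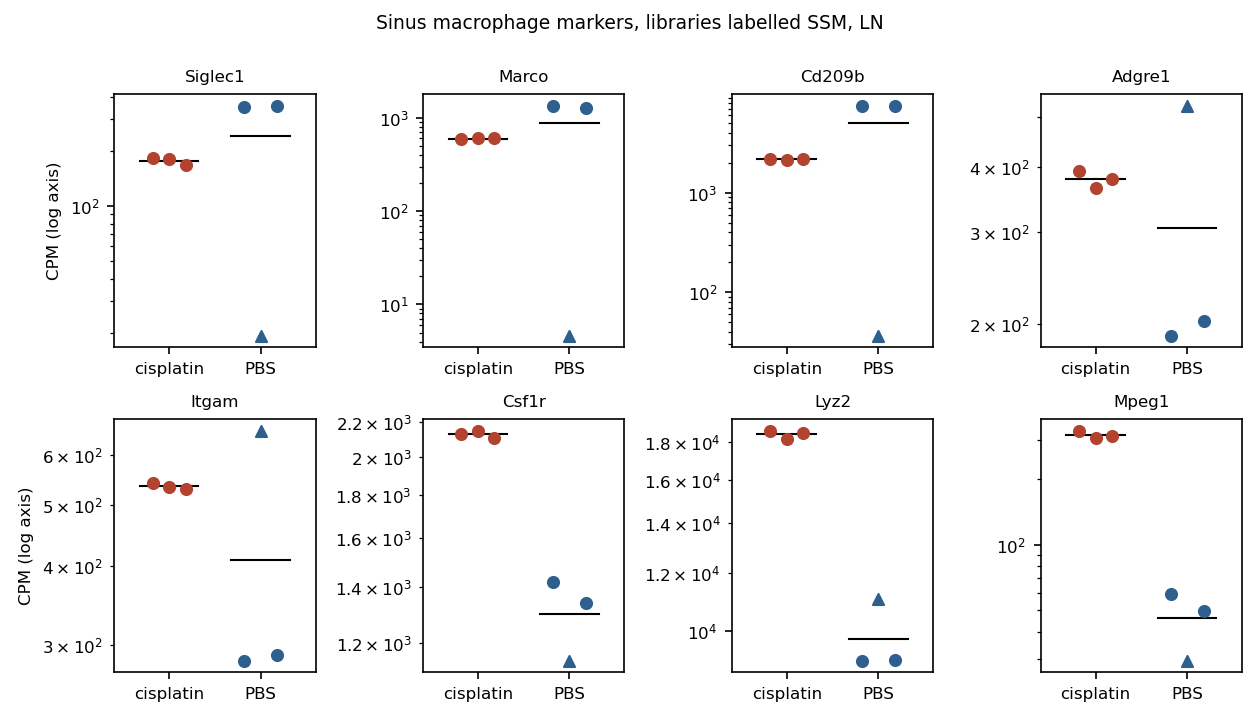
CPM of 8 sinus macrophage genes on log axes in the 3 cisplatin libraries (left, red) and the 3 PBS libraries (right, blue), with the triangle marking PBS 2 and the line the group mean. PBS 2 lies far below the others for Siglec1, Marco and Cd209b, and all cisplatin libraries lie above all PBS libraries for Csf1r, Lyz2 and Mpeg1.

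With all libraries 16886 genes were tested, of which 987 were higher and 1253 lower with cisplatin, 13.3% of those tested. At an unadjusted p under 0.05 there were 4927. Among the genes that passed, 494 were at least 2-fold higher and 874 at least 2-fold lower, together 8.1% of those tested. Groups did not overlap in 2188 of the 2240 genes that passed, and 39.8% of all tested genes had groups that did not overlap. Without PBS 2, 2085 of 17878 genes were higher and 2356 lower, 24.8% in all, and 2111 of the 2240 genes passed again in the same direction while 0 passed in the opposite one. A further 2330 genes passed without PBS 2 alone. The 12 libraries share 1 estimate of spread, and when the TDLN library SSM CIS 3, which resembles MSM libraries of its own condition, was left out as well, 10574 of 17632 genes passed (60%). Leaving out any 1 of the other 5 libraries left 803 to 1181 genes. As background for the lists below, 5.85% of all tested genes were higher and 7.42% lower with cisplatin (11.7% and 13.2% without PBS 2), and the median log2 fold change over all tested genes was -0.04.

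Genes of general macrophage identity were higher with cisplatin where they passed the test. Of 19 tested members of that list 4 were higher and 0 lower (21.1% higher), and 7 were higher without PBS 2. Lyz2, which encodes lysozyme, had 18629, 18151 and 18524 CPM in cisplatin libraries and 9122, 11053 and 9162 CPM in PBS libraries (log2 fold change 0.91 ± 0.13, adjusted p = 0.00297). Cd14, a co-receptor for bacterial lipopolysaccharide, had 820.4, 869 and 879.7 CPM against 133, 309 and 131 CPM (log2 fold change 2.17 ± 0.35, adjusted p = 0.00515). Every cisplatin library lay above every PBS library for both. Mpeg1, the pore-forming protein perforin-2 of phagocytes, had 330.4, 308 and 312 CPM with cisplatin and 59.4, 29.4 and 49.7 CPM with PBS (log2 fold change 2.78 ± 0.49, adjusted p = 0.00667). Cx3cr1, the fractalkine receptor, averaged 160.3 ± 2.83 CPM with cisplatin and 78.7 ± 10.7 CPM with PBS (log2 fold change 1.03 ± 0.18, adjusted p = 0.00634). These 4 genes also passed without PBS 2, with log2 fold changes of 1.04, 2.72, 2.56 and 1.17. Csf1r, the receptor for the survival factor CSF1, had 2127, 2146 and 2104 CPM against 1419, 1143 and 1339 CPM, groups that do not overlap, but missed the threshold (log2 fold change 0.71 ± 0.28, adjusted p = 0.12). The whole identity list summed to 27446, 26959.8 and 27257 CPM with cisplatin and to 14181, 16229 and 14045 CPM with PBS. In bulk RNA of sorted cells, fewer cells of a type and less RNA per cell cannot be told apart.

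Monocyte genes that passed were higher as well. Of 14 tested, 4 were higher and 0 lower (28.6%), and without PBS 2 there were 10. Ly6c2, the surface marker of inflammatory monocytes, had 398, 393 and 385 CPM in cisplatin libraries and 69.4, 155 and 73.9 CPM in PBS libraries (log2 fold change 1.98 ± 0.32, adjusted p = 0.00514, and 2.48 without PBS 2, adjusted p = 0.000346). Ms4a4c, a membrane protein of monocytes, had 364, 329 and 338 CPM against 99, 163 and 112 CPM (log2 fold change 1.46 ± 0.20, adjusted p = 0.00239). Fn1, which encodes fibronectin, had 160.1, 144 and 155 CPM against 48.9, 40.7 and 45.6 CPM (log2 fold change 1.76 ± 0.37, adjusted p = 0.0135). The 3 genes separated the groups in full, with PBS 2 the highest PBS library for Ly6c2 and Ms4a4c and the lowest for Fn1. Ly6c2 and Ms4a4c have close paralogs, so reads shared between copies make their levels less certain. The monocyte list summed to 7755, 7689 and 7722 CPM with cisplatin and to 4349, 5311 and 4239.6 CPM with PBS. How far the monocyte genes account for the macrophage genes was not tested.

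Genes of efferocytosis and scavenging were mixed, with 2 of 26 higher and 3 lower (7.69% and 11.5%). These shares were not far from the 5.85% and 7.42% of all tested genes. The list had 7 higher and 2 lower without PBS 2. Leaving out any 1 library other than PBS 2 left 1 to 2 lower. Msr1, scavenger receptor A, had 192, 182 and 194 CPM in cisplatin libraries and 37.2, 49.5 and 43.7 CPM in PBS libraries (log2 fold change 2.12 ± 0.13, adjusted p = 4.91e-05). Lrp1, an endocytic receptor that also clears dying cells, had 196, 206 and 203 CPM against 67.8, 53.9 and 71.4 CPM (log2 fold change 1.65 ± 0.30, adjusted p = 0.00749). Both separated the groups in full and passed without PBS 2 (adjusted p = 1.93e-05 and 0.0109). Among the lower members was Abca1, which exports cholesterol from loaded macrophages, with 38.8, 42.4 and 41 CPM in cisplatin libraries and 124, 77.8 and 127 CPM in PBS libraries (log2 fold change -1.43 ± 0.18, adjusted p = 0.00139, and -1.60 without PBS 2, adjusted p = 4.22e-05). Havcr1, which encodes the phosphatidylserine receptor TIM-1, had 3.79, 4.97 and 3.33 CPM against 26.4, 8.93 and 27 CPM (log2 fold change -2.37 ± 0.52, adjusted p = 0.0161), and missed the threshold without any 1 library other than PBS 2 (adjusted p = 0.0538 to 0.078). Colec12, a scavenger receptor with a lectin domain, had 20.5, 28.6 and 22.9 CPM against 31, 43.3 and 37.7 CPM (log2 fold change -0.64 ± 0.17, adjusted p = 0.0339). It missed the threshold without PBS 2 (adjusted p = 0.0555) and without PBS 3, CIS 1, CIS 2 or CIS 3 (adjusted p = 0.0502 to 0.154). The groups did not overlap for these 3 lower genes. Of 13 tested members of the medullary marker list 2 were higher and 0 lower (15.4%), Slc40a1 and Cd209a, also without PBS 2. The list as a whole leaned the other way, with a median log2 fold change of -0.56, and -1.11 without PBS 2. It summed to 5868, 5849.5 and 5950 CPM with cisplatin and to 12321, 257 and 12213 CPM with PBS. Slc40a1, the iron exporter ferroportin, had 407, 387 and 383 CPM against 122, 64.8 and 122 CPM (log2 fold change 1.93 ± 0.29, adjusted p = 0.00342). Cd209a, a lectin also found on dendritic cells and monocytes, averaged 37.4 ± 2.05 CPM with cisplatin and 10.6 ± 1.56 CPM with PBS (log2 fold change 1.83 ± 0.35, adjusted p = 0.00895).

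Fc receptor genes rose with cisplatin in 4 of 7 tested (57.1%), with none lower, and 4 passed without PBS 2. Fcer1g, the signalling chain shared by activating Fc receptors, had 1061, 1094 and 1112 CPM with cisplatin and 493, 519 and 463 CPM with PBS (log2 fold change 1.15 ± 0.11, adjusted p = 0.00051). Fcgr2b, the inhibitory receptor for IgG, had 387, 381 and 389 CPM against 128, 184 and 131 CPM (log2 fold change 1.39 ± 0.14, adjusted p = 0.000611). The activating receptor gene Fcgr4 had 64, 57.5 and 55.6 CPM against 8.97, 24.9 and 8.10 CPM (log2 fold change 2.08 ± 0.42, adjusted p = 0.0114, and 2.81 without PBS 2, adjusted p = 0.000433). An activating and an inhibitory receptor thus changed in the same direction, with PBS 2 the PBS library nearest to cisplatin for all 3. Toll-like receptor genes followed, with 6 of 25 higher and 0 lower (24%), and 3 higher when any 1 library other than PBS 2 was left out. There were 7 higher and 0 lower without PBS 2. Tlr2, a receptor for bacterial lipoproteins, had 391, 388 and 394 CPM in cisplatin libraries and 89.3, 172 and 92.9 CPM in PBS libraries (log2 fold change 1.73 ± 0.24, adjusted p = 0.00235). Its adaptor gene Myd88 had 369, 369 and 386 CPM against 187, 207 and 189 CPM (log2 fold change 0.95 ± 0.12, adjusted p = 0.00139).

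**Figure D2:**
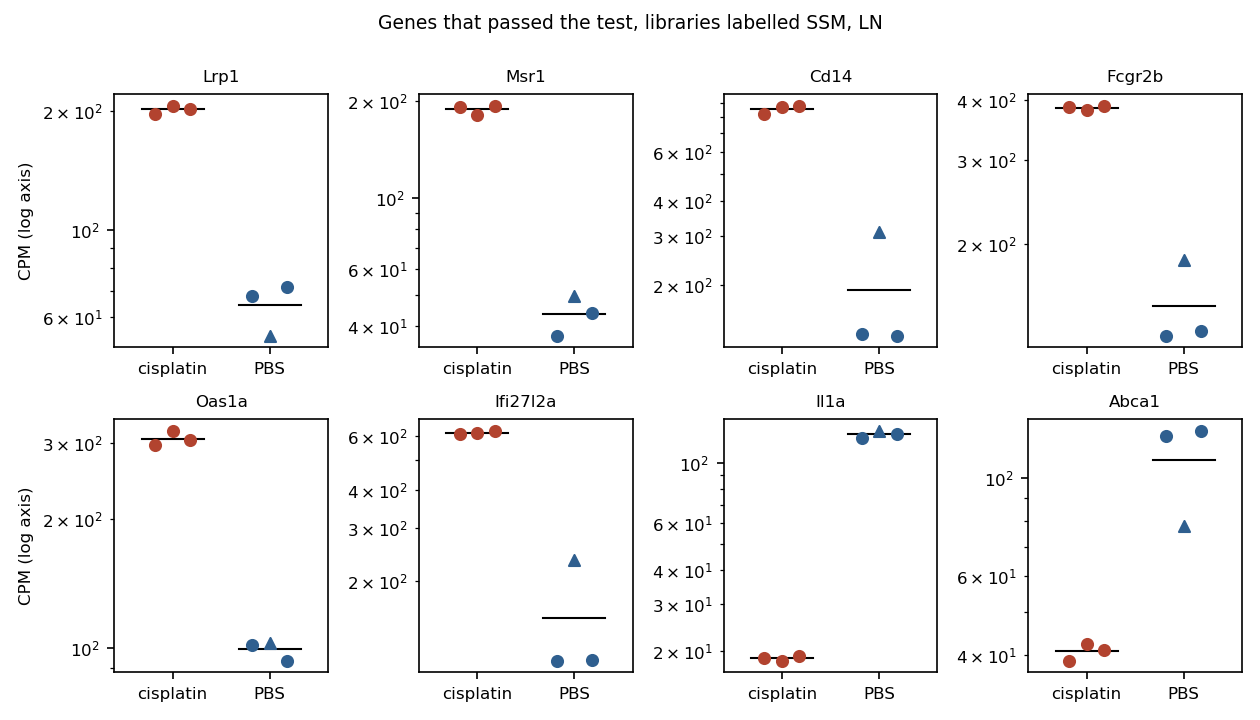
CPM of 8 genes on log axes in the 3 cisplatin libraries (left, red) and the 3 PBS libraries (right, blue), with the triangle marking PBS 2 and the line the group mean. Lrp1, Msr1, Cd14, Fcgr2b, Oas1a and Ifi27l2a lie higher in every cisplatin library than in any PBS library, Il1a and Abca1 lower.

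Interferon response genes were higher with cisplatin where they passed the test. Type I interferons act through a complex of transcription factors that binds the interferon-stimulated response element of their target genes. Of 41 tested genes of this response 14 were higher and 0 lower (34.1%), and 24 were higher without PBS 2. The median log2 fold change of the 41 was 0.68 with all libraries and 0.96 without PBS 2, against -0.04 and 0 over all tested genes. Leaving out any 1 of the other 5 libraries left 6. The list summed to 6299.7, 6352 and 6317 CPM with cisplatin and to 3192, 4295 and 3223 CPM with PBS. Oas1a, which makes the second messenger that activates RNase L, had 298, 321 and 305 CPM in cisplatin libraries and 101, 103 and 93.3 CPM in PBS libraries (log2 fold change 1.63 ± 0.24, adjusted p = 0.00297). Oas2 of the same family had 90.05, 96.9 and 94.4 CPM against 36, 27.9 and 33.6 CPM (log2 fold change 1.53 ± 0.17, adjusted p = 0.000978). Near-identical Oas1 copies can share reads, so the split among them is uncertain. Usp18, which removes ISG15 and restrains the interferon receptor, had 112, 108 and 102 CPM against 50.3, 51.6 and 44.9 CPM (log2 fold change 1.13 ± 0.14, adjusted p = 0.00123). For these 3 genes PBS 2 lay close to PBS 1 and PBS 3. Ifi27l2a, a strongly inducible interferon target, had 609, 615 and 624 CPM with cisplatin and 109, 235 and 110.2 CPM with PBS (log2 fold change 2.02 ± 0.35, adjusted p = 0.00649). Zbp1, a sensor of Z-form nucleic acid, had 189, 203 and 194 CPM against 72, 125 and 61.7 CPM (log2 fold change 1.18 ± 0.22, adjusted p = 0.00803). For the pair PBS 2 was the PBS library closest to cisplatin, and all 5 genes passed without it (adjusted p = 4.28e-05 to 0.00335). The list of interferon gamma targets and guanylate-binding proteins had 0 of 18 higher and 1 lower, and 0 of 19 higher and 3 lower without PBS 2.

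The core of the interferon-stimulated response element, GAAANNGAAA, was searched on both strands of windows from 250 bases before to 50 after each RefSeq gene start (GRCm38.p6), overlapping matches included. It lay in 3.44% of 32851 windows and in a window of 3.99% of 27025 genes. Of 42 interferon response genes 31 had a window and 19 held a match, and of the 8 higher genes with a window 4 did. The 160 bases before the start of Oas1a (chr5:120907526-120907685, minus strand) are shown because this gene rose and carries the element close to its start. The capitals mark a pair of overlapping matches on the printed strand, whose first bases lie 20 and 14 bases before the start.
Oas1a: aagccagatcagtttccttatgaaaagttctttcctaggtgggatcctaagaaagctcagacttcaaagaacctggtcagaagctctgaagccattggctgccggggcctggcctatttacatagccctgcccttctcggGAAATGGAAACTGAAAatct

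Genes of pigment cells had a higher sum in every cisplatin library than in any PBS library. Melanocytes make melanin with the enzymes of Tyr, Tyrp1 and Dct on a scaffold of the Pmel protein, under the factors MITF and SOX10. Of 11 tested genes of melanocytes and melanoma 6 were higher and 0 lower (54.5%), and 10 were higher without PBS 2. The list summed to 1791, 1722 and 1809 CPM with cisplatin and to 33.5, 329.6 and 27 CPM with PBS. Pmel (plus strand of chromosome 10 in GRCm38, 128704195 to 128720238, ENSMUSG00000025359) had 573, 539 and 585 CPM in cisplatin libraries and 5.16, 59 and 7.37 CPM in PBS libraries (log2 fold change 4.58 ± 0.88, adjusted p = 0.00963, and 6.52 without PBS 2, adjusted p = 0.00013). Tyrp1 had 345, 340.1 and 361 CPM against 3.25, 32.8 and 1.45 CPM (log2 fold change 4.82 ± 0.97, adjusted p = 0.0109, and 7.22 without PBS 2, adjusted p = 6.18e-05). All cisplatin libraries lay far above all PBS libraries, and PBS 2 was the highest PBS library for both. Tyr, the rate-limiting enzyme of melanin synthesis, had 39.9, 41.3 and 42.9 CPM against 0.955, 0.948 and 0.831 CPM (log2 fold change 5.49 ± 0.59, adjusted p = 0.000781). Oca2, a melanosome transporter, had 17, 14.5 and 19.3 CPM against 0.477, 0.135 and 0.104 CPM (log2 fold change 6.01 ± 0.67, adjusted p = 0.000964). Here PBS 2 did not stand out. Sox10 had 12.3, 12.8 and 11.5 CPM with cisplatin and 0 in each PBS library, which is at least 36.5-fold higher when PBS is set to a floor of 3 counts per library (adjusted p = 0.00475). Trpm1, a cation channel named for melanoma, had 46.3, 36 and 40.5 CPM against 0.573, 7.17 and 0.727 CPM (log2 fold change 3.90 ± 0.91, adjusted p = 0.0201, and 5.98 without PBS 2, adjusted p = 0.000601). The Trpm1 call was lost when any 1 library other than PBS 2 was left out (adjusted p = 0.058 to 0.0684).

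Dct, Slc45a2 and Mlana had groups that do not overlap but missed the threshold with all libraries. Dct, the third melanin enzyme, had 621, 609.8 and 617 CPM in cisplatin libraries and 13.7, 176 and 10.3 CPM in PBS libraries (log2 fold change 3.21 ± 0.95, adjusted p = 0.0501, and 5.71 without PBS 2, adjusted p = 0.000178). Slc45a2, a melanosome transporter, had 72.4, 70.5 and 72 CPM against 0, 9.75 and 0 CPM (adjusted p = 0.0695, and 9.32e-05 without PBS 2). Mlana, a melanosome protein, had 47.1, 42.5 and 43.9 CPM against 1.05, 33.7 and 1.04 CPM (adjusted p = 0.302, and 0.00166 without PBS 2). The 3 genes passed once PBS 2 was left out, which also changes the shared spread. Dct passed with PBS 2 kept in a fit without a low-count filter (adjusted p = 0.0393). On a scale over the 24 macrophage libraries the list summed to 1712 to 1806 CPM in the cisplatin libraries labelled SSM and to 219.6 to 232 CPM in those labelled MSM of the same node. With PBS it summed to 321.5 to 322 CPM in MSM 1 and MSM 3, close to the 324.5 CPM of PBS 2. Whether these transcripts were made in the sorted cells, were carried by other cells or were taken up was not tested.

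The M-box, TCATGTG, a MITF-bound form of the E-box, was searched in the same windows on both strands. It lay in 3.77% of the windows and in a window of 4.31% of the genes. Of the 11 pigment genes 6 had a window, and windows of Tyr, Tyrp1, Dct and Trpm1 held a match, though another Trpm1 window held none. The 160 bases before the start are shown for the 3 of them that passed the test, with the M-box in capitals. They are chr7:87493513-87493672 on the minus strand for Tyr, chr4:80834053-80834212 on the plus strand for Tyrp1 and chr7:64153675-64153834 on the plus strand for Trpm1. The M-box begins 22, 47 and 142 bases before the start in the same order, and a match of letters is a description only.
Tyr: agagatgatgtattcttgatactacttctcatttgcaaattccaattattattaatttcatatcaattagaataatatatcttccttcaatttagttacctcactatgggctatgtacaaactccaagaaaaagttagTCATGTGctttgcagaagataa
Tyrp1: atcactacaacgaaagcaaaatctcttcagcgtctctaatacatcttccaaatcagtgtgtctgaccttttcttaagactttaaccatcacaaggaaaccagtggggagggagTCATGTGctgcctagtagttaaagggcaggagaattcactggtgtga
Trpm1: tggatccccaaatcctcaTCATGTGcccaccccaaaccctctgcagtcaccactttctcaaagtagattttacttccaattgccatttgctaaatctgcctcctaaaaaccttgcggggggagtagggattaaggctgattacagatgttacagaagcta

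Mast cell and basophil genes were lower with cisplatin in the libraries labelled SSM. Mast cells store proteases and histamine in granules and are marked by tryptases, chymases and Cpa3. Of 11 tested genes 10 were lower and 0 higher (90.9%), with 10 lower without PBS 2 as well. Leaving out any 1 of the other 5 libraries left 4 to 7 lower. The list summed to 79.4, 79.1 and 76.9 CPM with cisplatin and to 1312, 644 and 1300.1 CPM with PBS. Cpa3, a carboxypeptidase of mast cell granules, had 5.48, 5.20 and 3.88 CPM in cisplatin libraries and 253, 10.4 and 273 CPM in PBS libraries (log2 fold change -5.20 ± 0.93, adjusted p = 0.00688). Gata2, a transcription factor of the lineage, had 7.58, 8.03 and 7.65 CPM against 35.9, 36.7 and 37.5 CPM (log2 fold change -2.24 ± 0.41, adjusted p = 0.00795). Hdc, the enzyme that makes histamine, had 39, 33.9 and 33.5 CPM against 186, 496 and 167 CPM (log2 fold change -2.995 ± 0.58, adjusted p = 0.00948, and -2.29 without PBS 2, adjusted p = 0.0112) and missed the threshold without CIS 2 or CIS 3 (adjusted p = 0.0502 and 0.0501). The groups did not overlap for any of the 3, while PBS 2 was the lowest PBS library for Cpa3 and the highest for Hdc.

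A chymase, 2 tryptases and a receptor of mast cells had 0 counts in every cisplatin library. The chymase gene Mcpt4 had 193, 1.08 and 183 CPM with PBS, at least 381-fold lower with cisplatin from group means with cisplatin at a floor of 3 counts per library (adjusted p = 0.0124). The tryptase gene Tpsb2 had 268, 1.49 and 239 CPM (at least 515-fold lower, adjusted p = 0.0113), and its close paralog Tpsab1 had 62.5, 1.08 and 58.1 CPM (at least 123-fold lower, adjusted p = 0.0176). Mrgprb1, the mast cell receptor for basic peptides, had 24, 0.406 and 26.5 CPM (at least 51.5-fold lower, adjusted p = 0.0296). PBS 2 held only traces of the 4 genes. All passed without PBS 2 (adjusted p = 8.23e-05 to 0.00201). In a fit of the 6 compared libraries by themselves Tpsb2, Mcpt4 and Tpsab1 missed the threshold (adjusted p = 0.0835, 0.0877 and 0.0767). Tpsab1 missed it also without CIS 1, CIS 2 or CIS 3 (adjusted p = 0.0592 to 0.0599), and Mrgprb1 without any 1 library other than PBS 2 (adjusted p = 0.0724 to 0.084). Reads can be split between the near-identical tryptase genes, so their separate levels are uncertain.

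**Figure D3:**
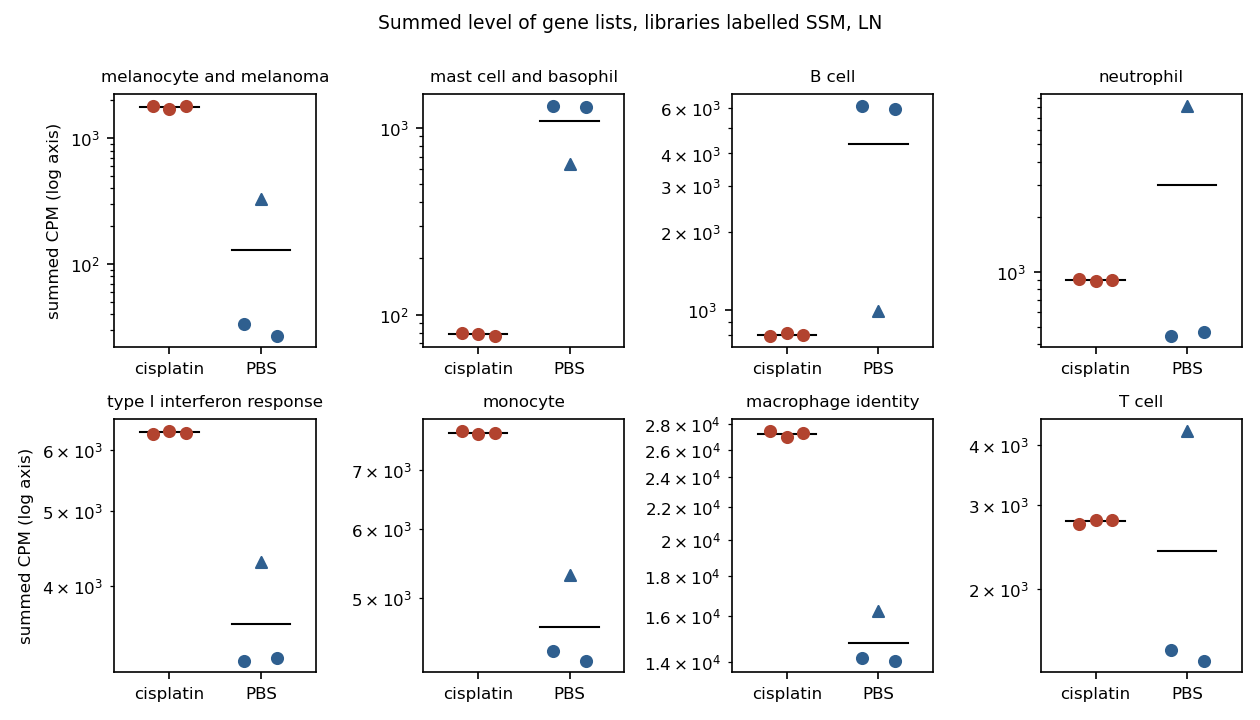
Summed CPM of 8 gene lists on log axes in the 3 cisplatin libraries (left, red) and the 3 PBS libraries (right, blue), with the triangle marking PBS 2 and the line the group mean. The melanocyte, interferon, monocyte and macrophage lists are higher and the mast cell and B cell lists lower in all cisplatin libraries, while for neutrophil and T cell genes the cisplatin libraries lie between PBS 2 and the others.

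B cell genes that passed were lower with cisplatin, and these calls depended on which libraries were kept. Of 18 tested genes 10 were lower and 0 higher with all libraries (55.6%), 17 were lower without PBS 2, and 0 were lower when any 1 of the other 5 libraries was left out. The list summed to 797, 816 and 802 CPM with cisplatin and to 6093, 994 and 5933 CPM with PBS. Cd79a, a chain of the B cell receptor (plus strand of chromosome 7 in GRCm38, 24897381 to 24902197, ENSMUSG00000003379), had 40.1, 42.6 and 41.3 CPM in cisplatin libraries and 903, 69.2 and 859 CPM in PBS libraries (log2 fold change -3.88 ± 0.97, adjusted p = 0.0261, and -4.39 without PBS 2, adjusted p = 0.00383). Fcer2a, the low-affinity IgE receptor CD23, had 14.7, 15.9 and 16.8 CPM against 402, 25.9 and 386 CPM (log2 fold change -4.10 ± 0.97, adjusted p = 0.0219). PBS 2 lay near the cisplatin libraries for both, and PBS 1 and PBS 3 far above. The signalling scaffold gene Bank1 averaged 44 ± 0.458 CPM with cisplatin and 252 ± 137 CPM with PBS (log2 fold change -2.51 ± 0.62, adjusted p = 0.0256). Fcrla and Cd37, B cell genes of which Cd37 is also expressed by other leukocytes, were lower too (log2 fold changes -3.996 and -1.003, adjusted p = 0.0338 and 0.0131). Without any 1 library other than PBS 2 the 5 genes had adjusted p of 0.0517 to 0.123.

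Of 11 tested genes of MHC class II antigen presentation 2 were lower and 0 higher (18.2%), H2-Ob and H2-DMb2, and 0 were lower when any 1 library other than PBS 2 was left out. Without PBS 2, 4 of the 11 were lower and 0 higher. H2-Ob, a chain of the DO molecule that restrains peptide loading in B cells, had 21, 20.8 and 18.1 CPM with cisplatin and 379.6, 37.8 and 381 CPM with PBS (log2 fold change -3.74 ± 0.95, adjusted p = 0.028). It moved with the B cell list, the part of which in this result was not tested. Without any 1 library other than PBS 2, H2-Ob had an adjusted p of 0.0749 to 0.112. The class II list as a whole summed to 24362, 25218 and 24785 CPM with cisplatin and to 24060.3, 13423 and 23161 CPM with PBS, so PBS 2 alone was low. The dendritic cell list had 1 of 24 genes higher and 3 lower (4.17% and 12.5%), but 6 higher and 5 lower without PBS 2. It had 0 to 1 lower when any 1 library other than PBS 2 was left out. Its lineage factor Zbtb46 had 11.1, 10.5 and 8.65 CPM against 30.4, 26.4 and 28 CPM (log2 fold change -1.49 ± 0.37, adjusted p = 0.0257), which missed the threshold without any 1 library other than PBS 2 (adjusted p = 0.0668 to 0.11).

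For neutrophil genes the direction of the median turned with 1 library. Of 15 tested 4 were lower and 0 higher with all libraries (26.7%), while without PBS 2 3 were higher and 2 lower. The median log2 fold change of the 15 was -1.75 with all libraries and 1.04 without PBS 2. The list summed to 909, 893 and 896 CPM with cisplatin and to 446, 8105 and 470.3 CPM with PBS, so PBS 1 and PBS 3 were below the cisplatin libraries and PBS 2 far above. S100a8 and S100a9, which form calprotectin, had 7.58, 5.65 and 5.32 and 4.11, 3.62 and 3.88 CPM with cisplatin. With PBS the pair had 39, 1112 and 44.7 CPM for S100a8 and 54.9, 1179 and 61.6 CPM for S100a9. They were lower with all libraries (adjusted p = 0.0224 and 0.0136) and without PBS 2 (log2 fold changes -2.73 and -3.88, adjusted p = 0.0299 and 0.00983). Without CIS 1, CIS 2 or CIS 3 the pair had adjusted p of 0.0665 to 0.0973. Lcn2, an iron-binding neutrophil protein, had 0.843, 0.791 and 0.666 CPM against 2.96, 544 and 1.77 CPM, and its log2 fold change of -7.87 became -1.59 without PBS 2. Its adjusted p of 0.047 became 0.426 without PBS 2 and 0.150 to 0.154 without 1 of the cisplatin libraries.

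Glycolysis and lysosome genes that passed the test were all higher with cisplatin, and most members of either list did not pass. Of 30 tested genes of glycolysis and hypoxia 7 were higher and 0 lower (23.3%), 14 were higher without PBS 2, and 4 to 5 when any 1 of the other libraries was left out. The list summed to 10552, 10664 and 10724 CPM with cisplatin and to 6015, 8089.9 and 5760.1 CPM with PBS. Pgk1, phosphoglycerate kinase, had 349.8, 342 and 352 CPM in cisplatin libraries and 157, 190.1 and 162 CPM in PBS libraries (log2 fold change 1.04 ± 0.11, adjusted p = 0.000781). The enolase gene Eno1 had 2206, 2306 and 2268 CPM against 1295, 1258 and 1203 CPM (log2 fold change 0.85 ± 0.12, adjusted p = 0.00217). Tpi1 and Gapdh, enzymes of the same pathway, were higher as well (1.05 and 0.74 on the log2 scale, adjusted p = 0.00624 and 0.00688). The glycolytic genes have processed pseudogenes that can take reads. Of 30 lysosome genes 6 were higher and 0 lower (20%), with 2 to 3 when any 1 library other than PBS 2 was left out. The lysosome list had 7 higher and 0 lower without PBS 2. Ctsa, a protective carboxypeptidase, had 1189, 1177 and 1229.8 CPM with cisplatin and 660.5, 571 and 639 CPM with PBS (log2 fold change 0.94 ± 0.17, adjusted p = 0.00685). Gusb, which degrades glucuronides, averaged 268 ± 3.63 CPM with cisplatin and 139 ± 19.8 CPM with PBS (log2 fold change 0.95 ± 0.13, adjusted p = 0.00266). Both groups of enzymes separated the treatments in full for the genes named here. The macrophage and monocyte sums given above move with them, and their part was not tested.

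Cholesterol genes moved in both directions. Of 27 tested 6 were higher and 3 lower (22.2% and 11.1%), and 1 was lower when any 1 library other than PBS 2 was left out. There were 8 higher and 2 lower without PBS 2. The synthesis genes Cyp51 and Fdps were among the higher ones. Cyp51 had 73.2, 66.1 and 65.9 CPM in cisplatin libraries and 41.1, 37.1 and 41.9 CPM in PBS libraries (log2 fold change 0.77 ± 0.10, adjusted p = 0.00203). Fdps had 70.5, 76.6 and 73.4 CPM against 33.6, 22.6 and 38.9 CPM (log2 fold change 1.21 ± 0.18, adjusted p = 0.00364). The exporter Abca1, described above, was lower. All 3 passed without PBS 2 (adjusted p = 4.22e-05 for Abca1 and 0.000826 to 0.00121 for Cyp51 and Fdps).

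Transporters and chaperones of copper and platinum, which bear on how cisplatin enters and leaves cells, were higher in 4 of 12 tested (33.3%), with none lower. Leaving out any 1 library other than PBS 2 left 2, and 4 were higher and 0 lower without PBS 2. Atox1, a copper chaperone that also binds platinum, had 209, 228 and 221 CPM with cisplatin and 116, 144 and 104 CPM with PBS (log2 fold change 0.85 ± 0.15, adjusted p = 0.00701). Abcc4, an efflux pump, had 41, 38.3 and 42.7 CPM against 21.4, 13.7 and 22.1 CPM (log2 fold change 1.09 ± 0.20, adjusted p = 0.00823). Groups did not overlap for either gene. Genes of the oxidative stress and glutathione list were higher in 4 of 27 tested (14.8%) and lower in 0, with 2 left when any 1 library other than PBS 2 was left out. Without PBS 2, 9 were higher and 1 lower. Prdx2, a peroxidase, averaged 219.7 ± 3.50 CPM with cisplatin and 134 ± 4.90 CPM with PBS (log2 fold change 0.72 ± 0.12, adjusted p = 0.00548). Gstp1, a glutathione transferase with a close paralog, averaged 326 ± 4.42 CPM with cisplatin and 215 ± 17.9 CPM with PBS (log2 fold change 0.60 ± 0.10, adjusted p = 0.00586). Gsta4 of the same enzyme class had 25.3, 27.1 and 29.4 CPM against 1.53, 6.09 and 2.39 CPM (log2 fold change 3.04 ± 0.65, adjusted p = 0.0139, and 3.82 without PBS 2, adjusted p = 0.00249), which missed the threshold without any 1 library other than PBS 2 (adjusted p = 0.0512 to 0.0608).

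Targets of p53 changed in few cases. Of 29 tested 2 were higher and 0 lower (6.90%), near the 5.85% of all genes, and the median log2 fold change was -0.02. There were 2 higher and 1 lower without PBS 2, with a median of 0.11. Bax, which opens the mitochondrial membrane in apoptosis, had 165, 185 and 175 CPM in cisplatin libraries and 125, 131 and 106 CPM in PBS libraries (log2 fold change 0.53 ± 0.11, adjusted p = 0.0127). Bbc3, which encodes the apoptosis inducer PUMA, had 10.5, 9.16 and 10.3 CPM against 3.82, 5.28 and 4.47 CPM (log2 fold change 1.15 ± 0.30, adjusted p = 0.0297). Apaf1 of the apoptosome, in the list of apoptosis regulators and not in the p53 list, averaged 54.1 ± 2.36 CPM with cisplatin and 32 ± 1.35 CPM with PBS (log2 fold change 0.76 ± 0.17, adjusted p = 0.0194). Of 28 apoptosis regulators, which include Bax and Bbc3, 4 were higher and 2 lower (14.3% and 7.14%). The lower ones were Birc2 and Cflar. This list had 5 higher and 2 lower without PBS 2. Bax, Bbc3 and Apaf1 passed without PBS 2. Bax was lost without PBS 3, CIS 2 or CIS 3 (adjusted p = 0.0503 to 0.06), and Bbc3 and Apaf1 without any 1 library other than PBS 2 (adjusted p = 0.0535 to 0.0976). Cdkn1a, the cell cycle inhibitor p21, had 385, 389 and 401 CPM with cisplatin and 171, 609.6 and 155 CPM with PBS, with PBS 2 above all other libraries (log2 fold change 0.33 ± 0.70, adjusted p = 0.81, and 1.29 without PBS 2, adjusted p = 0.201). Mdm2, the ligase that removes p53, had 86.5, 85 and 82.3 CPM against 75.1, 78.1 and 70.2 CPM, groups that do not overlap (log2 fold change 0.18 ± 0.10, adjusted p = 0.27). Neither Cdkn1a nor Mdm2 passed with all libraries or without PBS 2 alone. Both passed once the TDLN library SSM CIS 3 was left out of the shared fit too (log2 fold changes 1.285 and 0.24, adjusted p = 6.9e-11 and 0.0107).

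Of 43 tested genes of crosslink and other DNA repair 5 were higher and 4 lower (11.6% and 9.30%). There were 5 higher and 3 lower without PBS 2. Leaving out any 1 of the other libraries left 1 to 3 higher and 0 to 1 lower. Brca1, which directs repair by homologous recombination, had 13.1, 12.3 and 14.8 CPM in cisplatin libraries and 1.15, 2.03 and 2.28 CPM in PBS libraries (log2 fold change 2.87 ± 0.53, adjusted p = 0.00766). Slx4, a scaffold for nucleases that unhook crosslinks, had 39.8, 34.4 and 35.3 CPM against 14, 8.26 and 13.1 CPM (log2 fold change 1.62 ± 0.34, adjusted p = 0.0126), with an adjusted p of 0.0506 without CIS 1. Of the lower members Fancm, which moves along DNA and anchors the Fanconi complex, had 3.69, 4.07 and 4.55 CPM against 7.83, 12.5 and 8.83 CPM (log2 fold change -1.24 ± 0.35, adjusted p = 0.0425), and missed the threshold without any 1 of the 6 libraries (adjusted p = 0.0679 to 0.152). The list sums hardly differed, at 788, 805 and 799 CPM with cisplatin and 784, 745 and 806 CPM with PBS. Of 40 cell cycle genes 2 were higher and 0 lower (5%), but 17 were higher without PBS 2. The proliferation marker Mki67 had 16.3, 15.9 and 16.1 CPM against 9.93, 9.48 and 9.03 CPM (log2 fold change 0.76 ± 0.14, adjusted p = 0.00688). Foxm1, which drives genes of mitosis, had 15.1, 18.2 and 15.2 CPM against 3.34, 1.90 and 3.53 CPM (log2 fold change 2.45 ± 0.29, adjusted p = 0.00109). Top2a, a topoisomerase of dividing cells, had 24.1, 27 and 23.5 CPM against 15.7, 25.6 and 16 CPM, where PBS 2 lay within the cisplatin range (log2 fold change 0.39 ± 0.22, adjusted p = 0.286, and 0.68 without PBS 2, adjusted p = 0.0293). The summed list was 1487, 1461 and 1458 CPM with cisplatin and 1085, 1508 and 1100.4 CPM with PBS.

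Among inflammatory genes the interleukin 1 pair went apart. Il1a, an alarmin held in cells until damage, had 18.9, 18.4 and 19.2 CPM with cisplatin and 124, 132 and 129 CPM with PBS, with no PBS library standing out (log2 fold change -2.76 ± 0.21, adjusted p = 0.000169, and -2.72 without PBS 2, adjusted p = 0.000104). Il1b, the secreted form released by inflammasomes, had 3322, 3300.4 and 3347 CPM against 463, 2144 and 466 CPM (log2 fold change 1.70 ± 0.64, adjusted p = 0.106, and 2.86 without PBS 2, adjusted p = 0.00537). Its groups do not overlap, and PBS 2 lay nearer to the cisplatin libraries. Il12a, a subunit of interleukin 12, had 0 counts in all cisplatin libraries and 5.73, 2.57 and 4.36 CPM with PBS (at least 12.8-fold lower with cisplatin from the 3-count floor, adjusted p = 0.000834). Of 30 tested genes of this list 2 were lower and 0 higher with all libraries (6.67%), and 7 were higher and 3 lower without PBS 2. Ccl24, a chemokine for eosinophils, had 5.58, 3.96 and 4.99 CPM with cisplatin and 0 with PBS (at least 14.5-fold higher, adjusted p = 0.00855). Il13ra1, a chain of the receptor for interleukins 4 and 13, had 205, 177 and 198 CPM against 78.1, 95.3 and 81.3 CPM (log2 fold change 1.19 ± 0.11, adjusted p = 0.00051). These were the 2 higher members of the list on IL-33 and type 2 immunity, of 21 tested, with 1 lower. Without PBS 2, 4 of 22 were higher and 1 lower.

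Interleukin 33, which the study's title names, is an alarmin kept in the nucleus and sensed by the receptor ST2, which Il1rl1 encodes. Il33 (plus strand of chromosome 19 in GRCm38, 29925114 to 29960718, ENSMUSG00000024810) had 3.48, 4.52 and 2.0 CPM in cisplatin libraries and 14.1, 0 and 19.1 CPM in PBS libraries. PBS 1 and PBS 3 were thus above the cisplatin libraries and PBS 2 had no counts, below all of them. The gene did not pass with all libraries (log2 fold change -1.74 ± 1.32, adjusted p = 0.427) or without PBS 2 (log2 fold change -2.29, adjusted p = 0.1), but did when the TDLN library SSM CIS 3, which also resembles MSM libraries, was left out of the shared fit too (log2 fold change -2.29, adjusted p = 5.66e-07). Il1rl1 (plus strand of chromosome 1 in GRCm38, 40429570 to 40465415, ENSMUSG00000026069) had 12.2, 11.4 and 12 CPM with cisplatin and 9.83, 43.7 and 11.6 CPM with PBS (log2 fold change -0.87 ± 0.66, adjusted p = 0.43, and 0.17 without PBS 2, adjusted p = 0.861). PBS 2 alone was high.

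Of 16 heat shock genes 3 were lower and 0 higher (18.8%), with 1 to 2 lower when any 1 library other than PBS 2 was left out. There were 3 lower and 1 higher without PBS 2, and the median log2 fold change moved from -0.57 to -0.19. The list summed to 6041, 5847.5 and 5951 CPM with cisplatin and to 5099, 8441 and 5084 CPM with PBS. The cisplatin sums thus lay above PBS 1 and PBS 3 and below PBS 2. Dnajb1, a chaperone induced with heat shock, had 119, 122 and 122 CPM in cisplatin libraries and 182, 248 and 180.4 CPM in PBS libraries (log2 fold change -0.75 ± 0.13, adjusted p = 0.00667). Of 24 immediate early genes 1 was higher, Atf3, and 2 were lower (4.17% and 8.33%), with 2 higher and 3 lower without PBS 2. Their median log2 fold change was 0.33, and 0.61 without PBS 2. Egr3, a lower member that thus ran against this median, had 4.11, 3.62 and 4.44 CPM against 41.5, 13.1 and 34.7 CPM (log2 fold change -2.88 ± 0.37, adjusted p = 0.00172). Of 24 genes of the unfolded protein response 4 were higher and 0 lower (16.7%), with 1 left when any 1 library other than PBS 2 was left out. There were 4 higher and 1 lower without PBS 2. Xbp1, the factor spliced in that response, averaged 382 ± 12.2 CPM with cisplatin and 196 ± 6.0 CPM with PBS (log2 fold change 0.96 ± 0.09, adjusted p = 0.00051). Xbp1 is also a plasma cell gene, and the plasma cell list summed to 823, 856 and 863 CPM with cisplatin and to 555, 708 and 560.4 CPM with PBS. The part of plasma cells in its level was not tested.

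**Figure D4:**
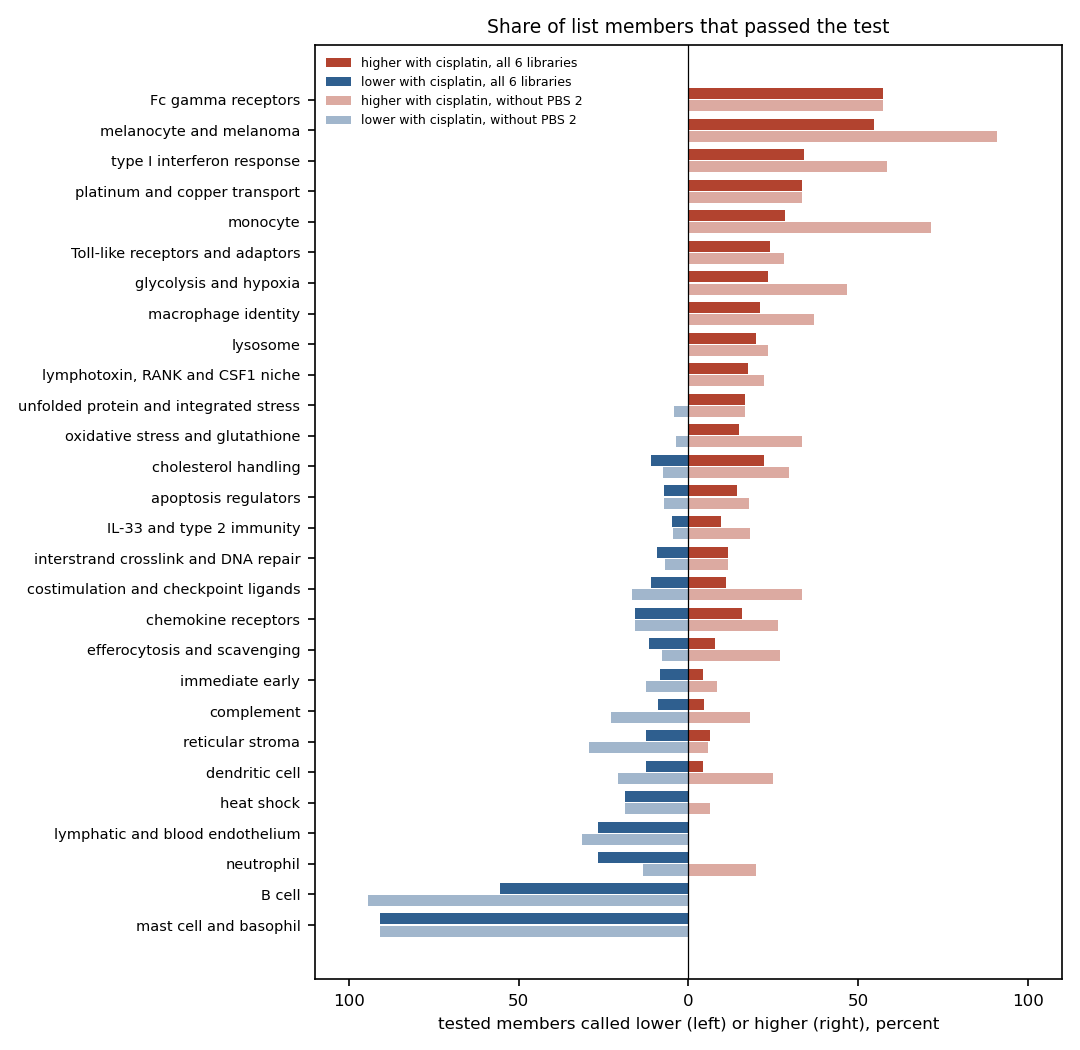
Share of tested members that passed the test in 28 gene lists with at least 3 such members, to the right if higher and to the left if lower with cisplatin, in percent. Full bars are from all 6 libraries and pale bars without PBS 2; 5.85% of all tested genes were higher and 7.42% lower with all libraries.

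By size of change, further genes stood out beyond the lists. Sparcl1, a matrix protein of the SPARC family, had 26.1, 26.7 and 25 CPM with cisplatin and 0.191, 0.406 and 0 CPM with PBS (log2 fold change 7.02 ± 0.68, adjusted p = 0.000536, and 7.87 without PBS 2, adjusted p = 0.000121). Epha3, an ephrin receptor, had 13.7, 15.9 and 15.1 CPM against 0.573, 0 and 0.104 CPM (log2 fold change 5.86 ± 0.93, adjusted p = 0.00447). Tbx2, a T-box factor that acts in melanocytes among other cells, had 9.69, 13.5 and 11.8 CPM against 0 in each PBS library (at least 34.8-fold higher from the 3-count floor, adjusted p = 0.00515). Lrrc29, a leucine-rich repeat gene, had 8.74, 9.38 and 8.10 CPM against 0 (at least 26.1-fold higher, adjusted p = 0.00227). Apold1, Mboat2 and Plagl1 were also among the 10 largest increases and were nearly without counts in PBS libraries (at most 0.406 CPM in a library, and 5.99 to 13.1 CPM over the 3 genes with cisplatin). The largest decreases beside the mast cell proteases included Srpk3, a muscle-enriched kinase gene, with 0.105, 0 and 0.111 CPM in cisplatin libraries and 111, 13.3 and 113 CPM in PBS libraries (adjusted p = 0.00469). Ell3, an elongation factor gene expressed in B cells, had 0, 0.113 and 0 CPM against 38.5, 3.25 and 38.9 CPM (adjusted p = 0.00664). Both counted 1 or 2 reads in all over the cisplatin libraries, and PBS 2 was the lowest PBS library. Il1f9, a cytokine of the interleukin 36 family, had 0 counts with cisplatin and 3.91, 24.4 and 3.53 CPM with PBS, highest in PBS 2 (adjusted p = 0.0107, and 0.00769 without PBS 2). Ahrr, the repressor of the aryl hydrocarbon receptor, had 0 counts against 10.1, 3.38 and 11.5 CPM (at least 25.3-fold lower, adjusted p = 0.0134). The mitochondrial gene mt-Nd3 had 0 counts against 13.4, 13.7 and 14.9 CPM (at least 42.4-fold lower, adjusted p = 0.0354), and missed the threshold without any 1 library other than PBS 2 (adjusted p = 0.0788 to 0.0978). Mitochondrial genes together still held 0.284 to 0.391% of counts with cisplatin. Whether the assignment of reads sets the 0 counts of mt-Nd3 was not tested.

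**Figure D5:**
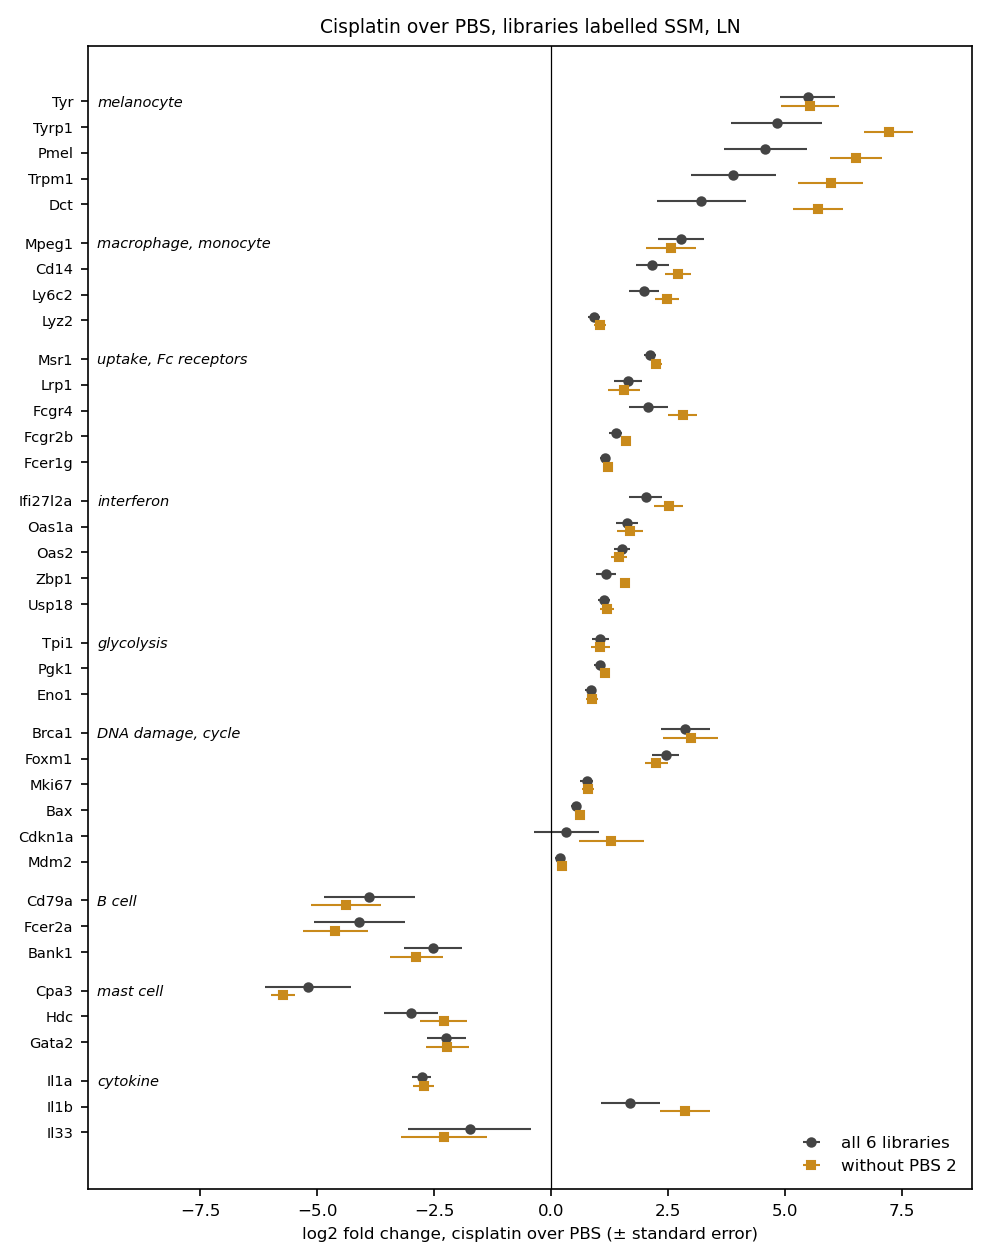
Log2 fold change of cisplatin over PBS with its standard error for 37 genes grouped by role, with all 6 libraries (circles) and without PBS 2 (squares). The genes are chosen examples and do not stand for their lists. Those drawn for pigment, phagocytes, uptake, interferon and glycolysis lie right of 0 in both fits. Those drawn for B cells and mast cells lie left of it, and Il1a and Il1b lie on opposite sides. Of 26 efferocytosis and scavenging genes 2 were higher and 3 lower, and the 3 lower ones are not drawn.

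Whether cisplatin acted alike on cells of the same label in the TDLN was tested as the difference of the cisplatin effects, LN minus TDLN. It passed for 3649 of 16886 genes (21.6%), 1387 higher (8.21%) and 2262 lower (13.4%) in the LN, and for 6317 of 17878 without PBS 2 (35.3%). The TDLN cisplatin group holds a library, SSM CIS 3, that resembles the MSM libraries of its condition. For Il33 the means were 3.33 CPM with cisplatin and 11.1 CPM with PBS in the LN, and 5.24 and 2.41 CPM in the TDLN (difference -2.85 on the log2 scale, adjusted p = 0.306). For Il1rl1 they were 11.9 and 21.7 CPM in the LN and 30.5 and 14.1 CPM in the TDLN (difference -1.98, adjusted p = 0.157). Neither difference passed the test with all libraries or without PBS 2, and that of Il33 passed once SSM CIS 3 of the TDLN was left out too (adjusted p = 6.69e-08).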

How the data were processed

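Per the labels' protocols, nodes were digested, myeloid cells sorted and polyA RNA made into stranded libraries. The submitters' processing notes name STAR, GRCm38, RSEM 1.3.0 and DESeq2 1.38.3, and the authors' own tests were not used here. The authors deposited RSEM's expected counts as whole numbers, and reads shared by similar genes were split by estimation. The macrophage TPM, deposited by the authors with decimals dropped, were treated as a score and served only to check columns.

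The table held 55487 genes, 99.4% with a symbol in GENCODE vM21 on GRCm38, from which coordinates come. Genes were kept with filterByExpr, scaled with TMM and tested with edgeR 4.0.16 by the quasi-likelihood test in 1 model of the 4 SSM groups (12 libraries), which share the estimate of spread. Adjustment was by the Benjamini-Hochberg method, with 0.05 as the limit. A standard error is the fitted log2 fold change divided by the square root of F. The common coefficient of variation was 0.403 with all libraries, 0.317 without PBS 2 and 0.0716 without both SSM libraries that resemble MSM. The scripts were tested on simulated data. Depth per library was 7.34 to 10.43 M counts.

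The comparison, its 42 gene lists with 849 genes and the genes always reported were chosen with earlier results of these data known. Named genes are the 10 largest changes per direction with at least 4 CPM on average and no overlap between groups, and up to 6 members per list that passed and 3 that did not; part of them is printed, and genes named beside others of their list are shown as examples. Some genes are not reported here. Predicted genes, antigen receptor segments, Y genes and Xist are left out of the naming. Alternatives were a DESeq2 1.42.0 test, DESeq2 size factors in edgeR, a fit of all genes with a count, a fit of the 6 compared libraries by themselves, a block for the replicate number and fits that left libraries out. Whether replicate numbers pair the samples is not known from the labels, and the main model did not pair them. Motifs were searched in promoter sequences of RefSeq on GRCm38.p6. The work used R 4.3.3 with limma 3.58.1, and Python 3.11.15 with matplotlib 3.10.9, numpy 2.4.6 and pandas 2.3.3.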

Additional observations from a re-analysis of the deposited data

Results flagged for a closer look

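For 16 of the genes with the largest changes the effect of cisplatin in the LN differed from that in the TDLN, by edgeR's test of the difference of the effects with adjustment over all genes. The mast cell proteases and receptor ran in opposite directions. Tpsb2 had 0 CPM with cisplatin and 169.7 CPM with PBS in the LN, and 639 and 0.151 CPM in the TDLN (adjusted p = 0.00149). Mcpt4 had 0 and 126 CPM in the LN and 438 and 0.0816 CPM in the TDLN (adjusted p = 0.00156). The differences also passed for Tpsab1 (adjusted p = 0.00227), with TDLN means of 104 CPM with cisplatin and 0.0338 CPM with PBS, and for Mrgprb1 (adjusted p = 0.00499), with 51.8 and 0 CPM.

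Of the other genes low with cisplatin in the LN, all but Il1f9 had higher TDLN means with cisplatin than with PBS. Srpk3 had TDLN means of 113 CPM with cisplatin and 16.7 CPM with PBS (adjusted p = 0.00165), Ell3 17.9 and 3.97 CPM (adjusted p = 0.00305) and Lcn2 184 and 8.78 CPM (adjusted p = 0.0162). Ahrr had 4.43 and 0 CPM (adjusted p = 0.00325), mt-Nd3 6.28 and 0 CPM (adjusted p = 0.0104) and Il1f9 7.46 and 9.72 CPM (adjusted p = 0.0164).

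Of genes high with cisplatin in the LN, the pigment gene Oca2 had TDLN means of 0.141 CPM with cisplatin and 0.365 CPM with PBS (adjusted p = 0.00135), and Sparcl1 0.0383 and 3.72 CPM (adjusted p = 0.000123). Plagl1 had 1.31 and 10.3 CPM there (adjusted p = 0.0032), Lrrc29 5.63 and 5.31 CPM (adjusted p = 0.00241), Epha3 0.667 and 0.306 CPM (adjusted p = 0.0276) and the olfactory receptor gene Olfr523 3.50 and 9.26 CPM (adjusted p = 0.0217, with LN means of 9.10 and 0 CPM). TDLN means include the library SSM CIS 3, which resembles MSM libraries, and all 16 differences also passed without PBS 2 and without both such libraries.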

How the results depend on the processing

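The number of genes past the threshold was 2240 with all libraries and 1368 at 2-fold or more, and 3649 for the node difference. In the same order it was 10574, 5076 and 11607 without PBS 2 and the TDLN library SSM CIS 3 together, and 3554, 2080 and 4888 with DESeq2. Leaving out 1 library gave 803 to 4441, 560 to 2790 and 2170 to 7440. Without a low-count filter it was 1448 for the first. With the replicate block it was 1206, 766 and 2375, and deviations of same-numbered libraries from their group means correlated at -0.057 to 0.016. PBS 2 dominates the PBS deviations, so these correlations cannot tell whether equal numbers mark paired libraries. The log2 fold change of Il1rl1 turned to 0.17 without PBS 2 and without it and SSM CIS 3, and ran from -1.21 to 0.17 when 1 library was left out. Of 103 printed genes 87 passed, 81 of these had a value in all 12 other fits, 58 of the 81 passed in each, and 0 of the 87 changed sign in a fit. The cause of these shifts was not tested, but the common coefficient of variation was 0.403 with all libraries and 0.0716 without both that resemble MSM. Depth of 7.34 to 10.43 M counts makes 3 counts the floor for genes at 0.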

Other observations

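T cell and natural killer cell genes did not pass the test in number. Of 20 T cell genes 0 passed with all libraries in edgeR's test, 1 at an unadjusted p under 0.05 and 1 with DESeq2, and the list summed to 2739.7, 2787 and 2785 CPM with cisplatin and 1493, 4286 and 1414 CPM with PBS. The natural killer list, with 1 of 12 lower, summed to 596, 586 and 592 CPM with cisplatin and 263, 1089 and 264 CPM with PBS. In both lists the cisplatin libraries lay above PBS 1 and PBS 3 and below PBS 2. The T cell list had 0 higher and 1 lower without PBS 2, and the natural killer list 1 higher and 1 lower.

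Stromal genes were at low levels. The endothelium list had 4 of 15 genes lower and 0 higher and summed to 114, 115 and 111 CPM with cisplatin and 256, 135 and 248 CPM with PBS. The reticular stroma list had 1 of 16 higher and 2 lower and summed to 133, 123 and 128 CPM with cisplatin and 321, 131 and 344 CPM with PBS. PBS 2 lay close to the cisplatin libraries in both. Leaving out any 1 library other than PBS 2 left 1 lower gene in the endothelium list and 0 in the stroma list. Without PBS 2, 5 of 16 endothelium genes were lower and 0 higher, and 5 of 17 stroma genes were lower and 1 higher.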
